A study of Mus musculus with 15 samples.

Results

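The genes described here are 42 mouse genes of the lysosome and of autophagy, listed by symbol and matched to the Ensembl identifiers of the count files. All 42 were found among the 55421 listed genes, and all 42 were among the 18979 genes that passed the filters on variance and low counts. They comprise 2 transcriptional regulators, 9 proteases, 13 other hydrolases, 2 precursor proteins that the lysosome cuts, 7 membrane proteins, 5 subunits of the proton pump and 4 autophagy proteins. RNA was measured in posterior eyecups, the back of the eye with the neural retina taken off, from mice aged 2.5 months on the C57BL/6J background. There were 4 WT mice, 6 mice with 1 copy of the FUN025 mutation of Tmem135 (FUN025/+) and 5 mice with the mutation on both copies (FUN025/FUN025), with 1 library for each mouse. The mutation is in the germline, so every cell type of the eyecup carries it. Mice of both sexes were used, and the sex of a given mouse is not labelled. The study lists as many males as females in WT, more males than females in FUN025/+ and fewer in FUN025/FUN025. The comparisons ask whether the transcripts of the degradation machinery differ between the mutant and WT eyecups.

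Lysosomes are acidic organelles in which hydrolases break down protein, lipid and carbohydrate that reach them by endocytosis, phagocytosis or autophagy. The V-ATPase pumps protons into the lumen, membrane glycoproteins such as LAMP1 and LAMP2 line the wall, and the transcription factors TFEB and TFE3 switch on many of these genes together when they enter the nucleus. In the retinal pigment epithelium, the lysosomes also degrade the photoreceptor outer segments that these cells engulf each day. Since TFEB and TFE3 are controlled mainly by where the protein sits in the cell, transcript levels do not report their activity.

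The short DNA element that TFEB-type factors are known to bind is shown first, because most of the measured genes are described as a group under shared control. RefSeq promoters on GRCm38.p6 were given for 36 of the 42 genes. They were searched in the 250 bases before each transcript start for TCACGTGA and for its inner part CACGTG, which lies within every TCACGTGA. Both motifs read the same on either strand. TCACGTGA was present for 6 of the 36 genes (16.7%), against 0.907% of the 27025 genes in the promoter table. CACGTG was present for 12 of the 36 (33.3%), against 6.86% of all genes in the table. The stretches around the motif follow for the 6 genes with the longer form and for Lamp1, which had 4 copies of the shorter form of which the stretch shown holds 2, with the motif in capitals and the rest in lower case, 5′ to 3′ on the strand of the gene.
Ctsa: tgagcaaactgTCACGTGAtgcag
Ctsd: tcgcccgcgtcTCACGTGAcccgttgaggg
Gla: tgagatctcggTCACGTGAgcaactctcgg
Cln3: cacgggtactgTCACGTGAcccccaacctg
Mcoln1: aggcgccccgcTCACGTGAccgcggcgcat
Atp6v1a: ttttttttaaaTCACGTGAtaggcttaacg
Lamp1: CACGTGaccacatCACGTGcggaacgga
On GRCm38.p6 these lie at chr2:164833749-164833772 on the plus strand for Ctsa, chr7:142387908-142387937 on the minus strand for Ctsd and chrX:134601182-134601211 on the minus strand for Gla. The stretch of Cln3 is chr7:126583340-126583369 on the minus strand, that of Mcoln1 is chr8:3500462-3500491 on the plus strand, that of Atp6v1a is chr16:44139373-44139402 on the minus strand and that of Lamp1 is chr8:13159133-13159160 on the plus strand. Of the 7 genes shown, Atp6v1a alone passed the test in a comparison reported here. TCACGTGA was present for 1 of the 6 genes with a promoter that passed in at least 1 comparison with WT and for 5 of the 30 that passed in neither. A match is a description of the letters, and binding was not measured.

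Sequencing depth differed between the genotypes. Total counts were 18094977 to 20029919 in WT libraries, 10903183 to 13456349 in FUN025/+ libraries and 11053535 to 15038383 in FUN025/FUN025 libraries, so every WT library was deeper than every mutant library. No sequencing batch is labelled, and a batch that follows genotype cannot be told apart from it. Tmem135 itself was counted at 64.0 ± 2.99 CPM (counts as a share of a library's TMM-scaled size, SD, n = 4) in WT, 75.0 ± 7.30 (n = 6) in FUN025/+ and 88.3 ± 4.57 (n = 5) in FUN025/FUN025 mice, and gene counts do not show the mutation. All 10 markers of the pigment epithelium were detected, with summed levels of 17583 to 21296 CPM in WT, 17451 to 23012 in FUN025/+ and 17118 to 21741 in FUN025/FUN025 mice. Against WT, 3 of 10 had log2 fold changes under 0 in FUN025/+ and 8 of 10 in FUN025/FUN025, with medians of 0.06 and -0.12. Between the mutant genotypes, 9 of 10 were lower in FUN025/FUN025 (median -0.18), and 0 were called in any comparison. All 13 rod and cone markers were also detected, although the neural retina was taken off, at 371 to 2571 CPM in WT, 199 to 803 in FUN025/+ and 204 to 536 in FUN025/FUN025 mice, with the highest sum in WT replicate 2. All 12 markers of striated muscle, a tissue that adheres to the back of the eye, summed to 4645 to 8561, 2575 to 6484 and 3930 to 4784 CPM in the same order. All 12 muscle markers had log2 fold changes under 0 in both mutant genotypes, with medians of -0.63 and -0.52 and with 3 and 2 called lower. The rod and cone markers had medians of -1.79 and -1.88, with 0 and 1 called lower. Of all genes, 6.61% and 7.02% were called lower in the same order. All 14 macrophage markers summed to 909 to 1262, 853 to 1244 and 992 to 1121 CPM. Of these, Cd68 was called higher in FUN025/FUN025, where 12 of 14 had log2 fold changes above 0 and 7.03% of all genes were called higher. The other lists were all detected too: 9 endothelial markers (1269 to 1498 CPM in WT, 1015 to 1404 in FUN025/+ with 2 of 9 called lower, and 937 to 1158 in FUN025/FUN025 with 6 of 9 called lower, where 6.61% and 7.02% of all genes were), 7 fibroblast, 7 pigment cell and 6 Schwann cell markers.

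The 42 genes together took 1.32% to 1.48% of the counts of a library, and the summed CPM overlapped between the genotypes, at 13759 to 14505 in WT, 12945 to 14938 in FUN025/+ and 13983 to 14801 in FUN025/FUN025 mice. In bulk eyecups, fewer cells of a type and less RNA per cell cannot be told apart. Levels between genes are compared as TPM, which divide the counts by exon length and then scale each library to the same total, without TMM. In WT mice, Psap, the precursor of the saposins that activate sphingolipid hydrolases, stood highest at 3937 ± 220 TPM (SD, n = 4). It was followed by Laptm4a, a membrane protein of late endosomes and lysosomes, at 2019 ± 94.4 TPM and by Ctsd, the aspartic protease cathepsin D, at 1726 ± 75.1 TPM. Ctsb at 609 ± 21.2, Cd63 at 583 ± 26.4 and Lamp1 at 573 ± 7.68 TPM formed a group whose neighbours differed by about their SD or less. The lowest were Tfeb at 21.2 ± 1.76, Cln3 at 18.5 ± 0.815, Tfe3 at 16.2 ± 1.08 and Galc, the galactosylceramidase, at 9.28 ± 0.579 TPM. The level of Galc rests on an exon length of 14879 bases over all its annotated transcripts, which lowers the value if shorter ones predominate.

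**Figure D1:**
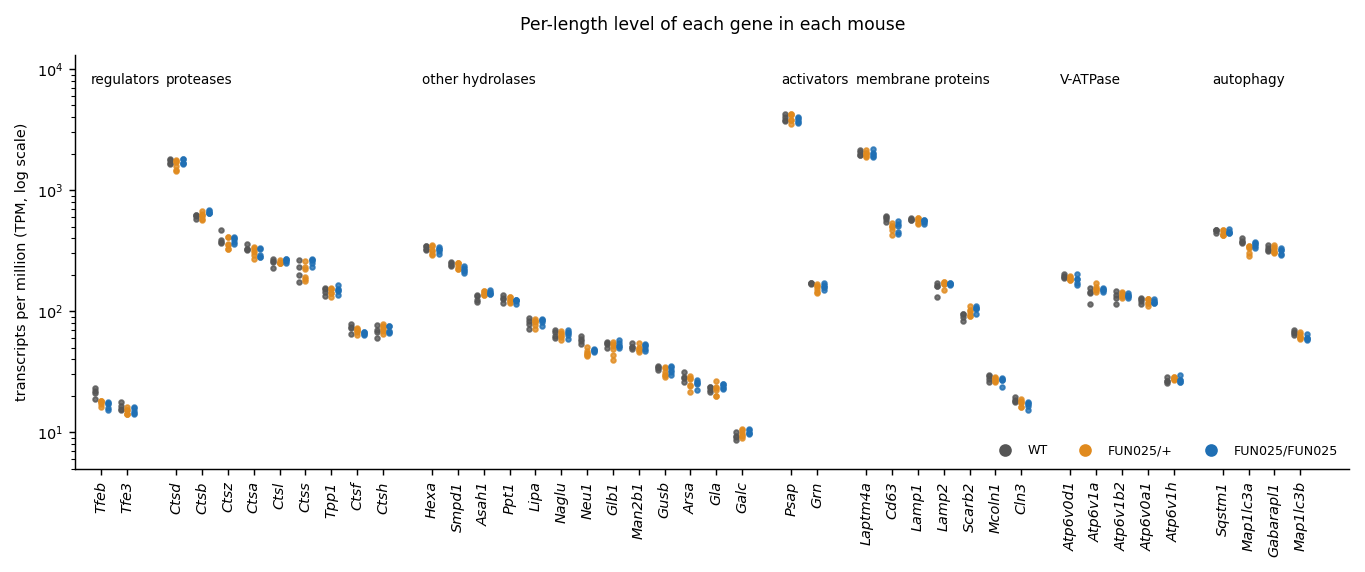
Level of each of the 42 genes in each mouse, in TPM on a log axis, ordered within each role by the WT mean, with WT in grey, FUN025/+ in orange and FUN025/FUN025 in blue. Psap lies near 3937 TPM and Galc near 9.28 TPM in WT, and for most genes the points of the 3 genotypes lie on top of each other.

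Differences from WT were small. By edgeR's quasi-likelihood test with Benjamini-Hochberg adjustment over all genes tested, 6 of 42 genes (14.3%) passed an adjusted p of 0.05 between FUN025/+ and WT, where 13.7% of all genes passed. Of these, 2 were higher (7.09% of all genes were) and 4 were lower (6.61% of all genes were). Between FUN025/FUN025 and WT, 5 of 42 (11.9%) passed, where 14% of all genes passed. Here 3 were higher and 2 lower, against 7.03% and 7.02% of all genes. The share of these genes that passed was thus near that of the whole transcriptome in both comparisons, and each comparison used the same 4 WT mice. The median log2 fold change of the 42 genes was -0.01 between FUN025/+ and WT and 0.00 between FUN025/FUN025 and WT, beside -0.00 and -0.01 for all genes. The median size of the change, without its sign, was 0.06 and 0.08 on the log2 scale, beside 0.14 and 0.15 for all genes. All genes here include those of lower counts, and the sizes were not compared with genes of the same range of levels. The 95% confidence interval of the log2 fold change lay within 0.5 of 0 for 42 of 42 genes between FUN025/+ and WT and for 41 of 42 between FUN025/FUN025 and WT, where Ctss reached 0.56. It lay within 0.3 of 0 for 37 and 36 of 42 genes.

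Individual WT mice weighed on the counts between FUN025/+ and WT. Without WT replicate 2, 3 genes passed, where 9.89% of all genes did. Without WT replicate 3 or WT replicate 4, 1 gene passed, Neu1, where 10.47% and 7.48% of all genes did. Leaving out any other mouse gave 4 to 7. Between FUN025/FUN025 and WT, 4 to 6 genes passed whichever mouse was left out. Leaving out WT replicate 2, the library richest in rod and cone transcripts, the median log2 fold change between FUN025/+ and WT was -0.01.

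**Figure D2:**
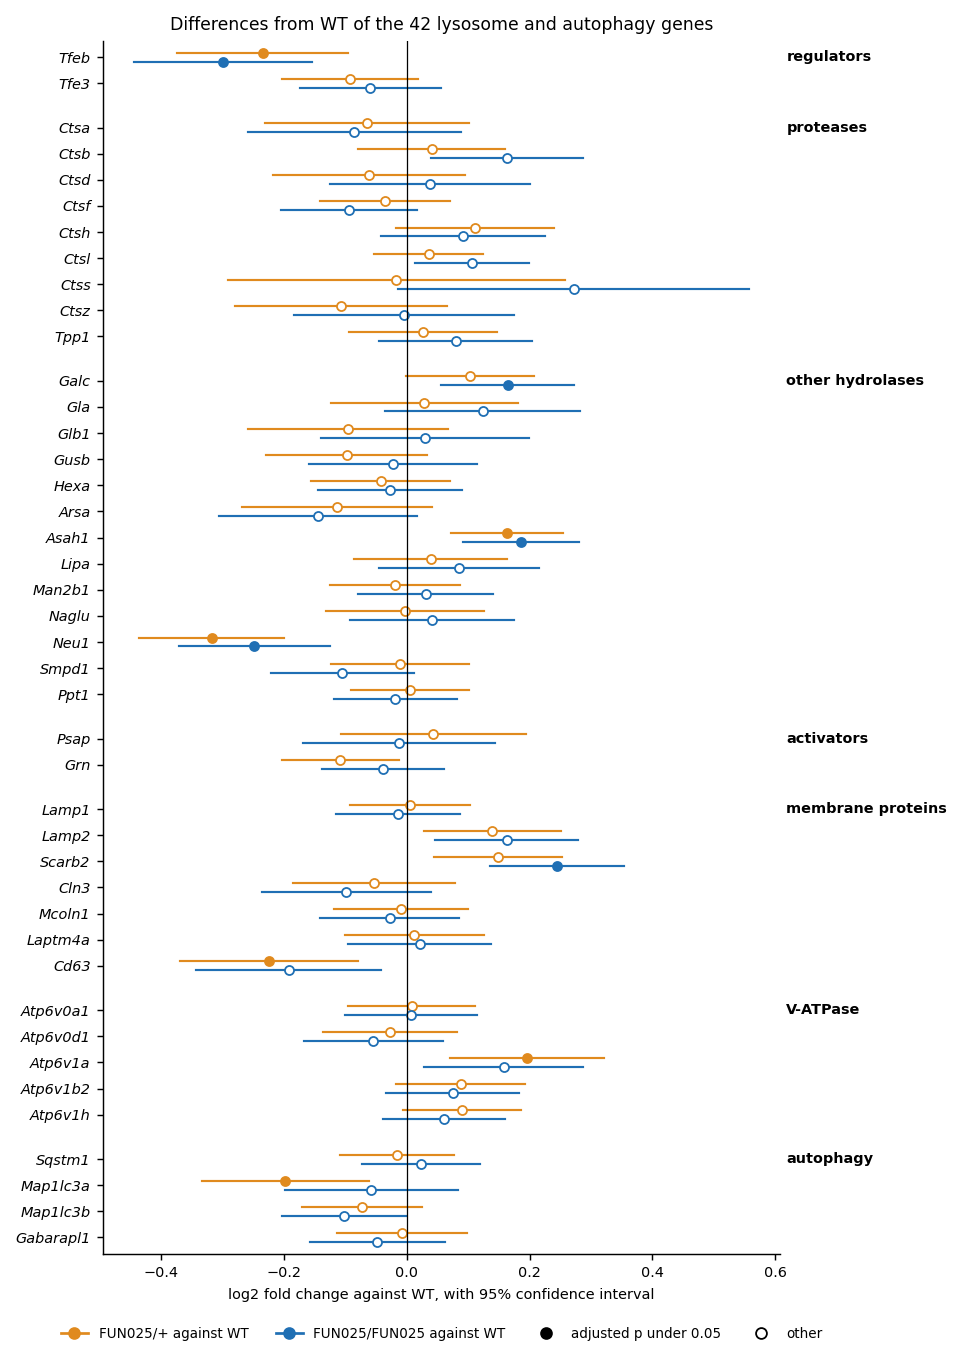
Log2 fold change of each gene against WT with its 95% confidence interval, FUN025/+ in orange and FUN025/FUN025 in blue, grouped by role, with filled points for an adjusted p under 0.05. Most intervals span 0, and the filled points lie between -0.32 and 0.24.

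Of the regulators, Tfeb was lower in both mutant genotypes and Tfe3 did not pass. Tfeb, which encodes the helix-loop-helix factor of the lysosomal gene network, had 33.3, 36.3, 38.6 and 43.0 CPM in the 4 WT mice, 30.02 to 34.1 with a median of 32.3 in the 6 FUN025/+ mice, and 31.5, 32.6, 29.9, 31.5 and 28.04 in the 5 FUN025/FUN025 mice. Every FUN025/FUN025 mouse lay below every WT mouse, while the FUN025/+ range reached above the lowest WT mouse. The log2 fold change against WT was -0.24 (SE 0.07, adjusted p = 0.0245) in FUN025/+ and -0.30 (SE 0.07, adjusted p = 0.0077) in FUN025/FUN025 mice. The call in FUN025/+ was lost without WT replicate 3 (adjusted p = 0.0658) and without WT replicate 4 (-0.16, adjusted p = 0.129), and the call in FUN025/FUN025 was kept whichever mouse was left out. Tfe3, the X-linked relative of Tfeb, had 51.0, 46.2, 45.2 and 46.6 CPM in WT, 41.8 to 47.2 with a median of 43.9 in FUN025/+, and 42.7, 47.9, 48.4, 42.5 and 45.3 in FUN025/FUN025 mice. The groups overlapped, with log2 fold changes of -0.09 (95% interval -0.20 to 0.02) and -0.06 (-0.17 to 0.06). Mitf, the related factor of pigment cells, was at 139 ± 18.05, 169 ± 19.8 and 170 ± 28.1 CPM in WT, FUN025/+ and FUN025/FUN025, with adjusted p = 0.131 and 0.132 against WT. Tfec, another relative, was at 1.59 ± 0.547, 1.34 ± 0.691 and 1.96 ± 1.02 CPM, and did not pass either (adjusted p = 0.716 and 0.675).

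None of the 9 proteases passed edgeR's test in either comparison with WT, and DESeq2 called Ctsb and Ctsl higher in FUN025/FUN025 (adjusted p = 0.0196 and 0.0221). Their log2 fold changes ran from -0.11 (Ctsz, cathepsin Z) to 0.11 (Ctsh, cathepsin H) in FUN025/+ and from -0.09 (Ctsf, cathepsin F) to 0.27 (Ctss) in FUN025/FUN025 mice. Ctsd had 1291, 1190, 1232 and 1399 CPM in WT, 1046 to 1336 with a median of 1275 in FUN025/+, and 1248, 1252, 1405, 1272 and 1385 in FUN025/FUN025 mice. The 3 groups overlapped, and the differences from WT were -0.06 (95% interval -0.22 to 0.09) and 0.04 (-0.12 to 0.20) on the log2 scale. Exons of Ctsd overlap those of Gm49369 on the same strand over 34.4% of their length, and how reads there were counted was not tested. Ctsb, the cysteine protease cathepsin B, was above every WT mouse in each of the 5 FUN025/FUN025 mice (1263 to 1375 against 1097 to 1235 CPM) with adjusted p = 0.0737, and 12.8% of its exon length overlaps Fdft1 on the other strand. Ctsl, cathepsin L, also lay wholly above WT in FUN025/FUN025 mice (538 to 567 against 483 to 530 CPM), with adjusted p = 0.121, but 26.9% of its exon length is shared with the antisense gene Gm47123, and the library kit did not mark the strand. Ctss, cathepsin S of macrophages and other phagocytes, had the widest interval of the 42 genes, with 97.8, 82.3, 74.3 and 118 CPM in WT and 109, 101, 118, 115 and 119 in FUN025/FUN025 mice (log2 fold change 0.27, 95% interval -0.01 to 0.56, adjusted p = 0.196). Ctsa, the protective protein that shields neuraminidase and beta-galactosidase, and Tpp1, tripeptidyl peptidase, had intervals that included 0 in both comparisons.

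Among the 13 other hydrolases, Neu1 and Asah1 passed in FUN025/+ and Neu1, Asah1 and Galc in FUN025/FUN025 mice. Neu1, the lysosomal sialidase, had 62.2, 67.4, 66.4 and 76.5 CPM in WT, 52.0 to 60.6 with a median of 53.2 in FUN025/+, and 57.5, 55.4, 58.6, 58.1 and 57.1 in FUN025/FUN025 mice. All 11 mutant mice lay below the 4 WT mice. The log2 fold change was -0.32 (SE 0.06, adjusted p = 0.00115) in FUN025/+ and -0.25 (SE 0.06, adjusted p = 0.0091) in FUN025/FUN025 mice, and both calls were kept whichever mouse was left out. Asah1, the acid ceramidase, had 144, 138, 132 and 134 CPM in WT, 143 to 163 with a median of 153 in FUN025/+, and 151, 163, 157, 150 and 158 in FUN025/FUN025 mice. It lay above every WT mouse in FUN025/FUN025, and in FUN025/+ the lowest mouse fell just under the highest WT mouse. The log2 fold change was 0.16 (SE 0.04, adjusted p = 0.0191) and 0.19 (SE 0.05, adjusted p = 0.0108). The first call was lost without WT replicate 3 or WT replicate 4 (adjusted p = 0.0547 and 0.0562).

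Galc, which splits galactosylceramide and psychosine, had 41.9, 45.8, 43.3 and 42.5 CPM in WT, 43.1 to 50.1 with a median of 46.4 in FUN025/+, and 47.3, 49.7, 48.4, 50.6 and 47.1 in FUN025/FUN025 mice. FUN025/FUN025 mice lay above all WT mice, with a log2 fold change of 0.16 (SE 0.05, adjusted p = 0.0416), while FUN025/+ overlapped WT (0.10, adjusted p = 0.181). The call was lost without WT replicate 1, 3 or 4, without FUN025/+ replicate 2 and without FUN025/FUN025 replicate 2, 3, 4 or 5 (adjusted p from 0.0507 to 0.0935). The other 10 hydrolases did not pass in either comparison. These were the glycosidases Gla (0.03 in FUN025/+ and 0.12 in FUN025/FUN025, log2 fold change against WT), Glb1 (-0.10 and 0.03), Gusb (-0.10 and -0.02), Hexa (-0.04 and -0.03), Man2b1 (-0.02 and 0.03) and Naglu (-0.00 and 0.04). They also included the sulfatase Arsa (-0.11 and -0.14), the acid lipase Lipa (0.04 and 0.09), the acid sphingomyelinase Smpd1 (-0.01 and -0.10) and the palmitoyl thioesterase Ppt1 (0.00 and -0.02). Of these hydrolases, the higher calls were thus those of Asah1 and Galc, and the lower calls were those of Neu1. The higher calls were all lost with an offset for GC content in the fit. The activator precursor Psap (0.04 and -0.01) did not pass. Grn, the precursor of the lysosomal granulins, was at 185, 172 and 180 CPM on average in WT, FUN025/+ and FUN025/FUN025 mice (log2 fold changes -0.11 and -0.04, adjusted p = 0.123 and 0.628).

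**Figure D3:**
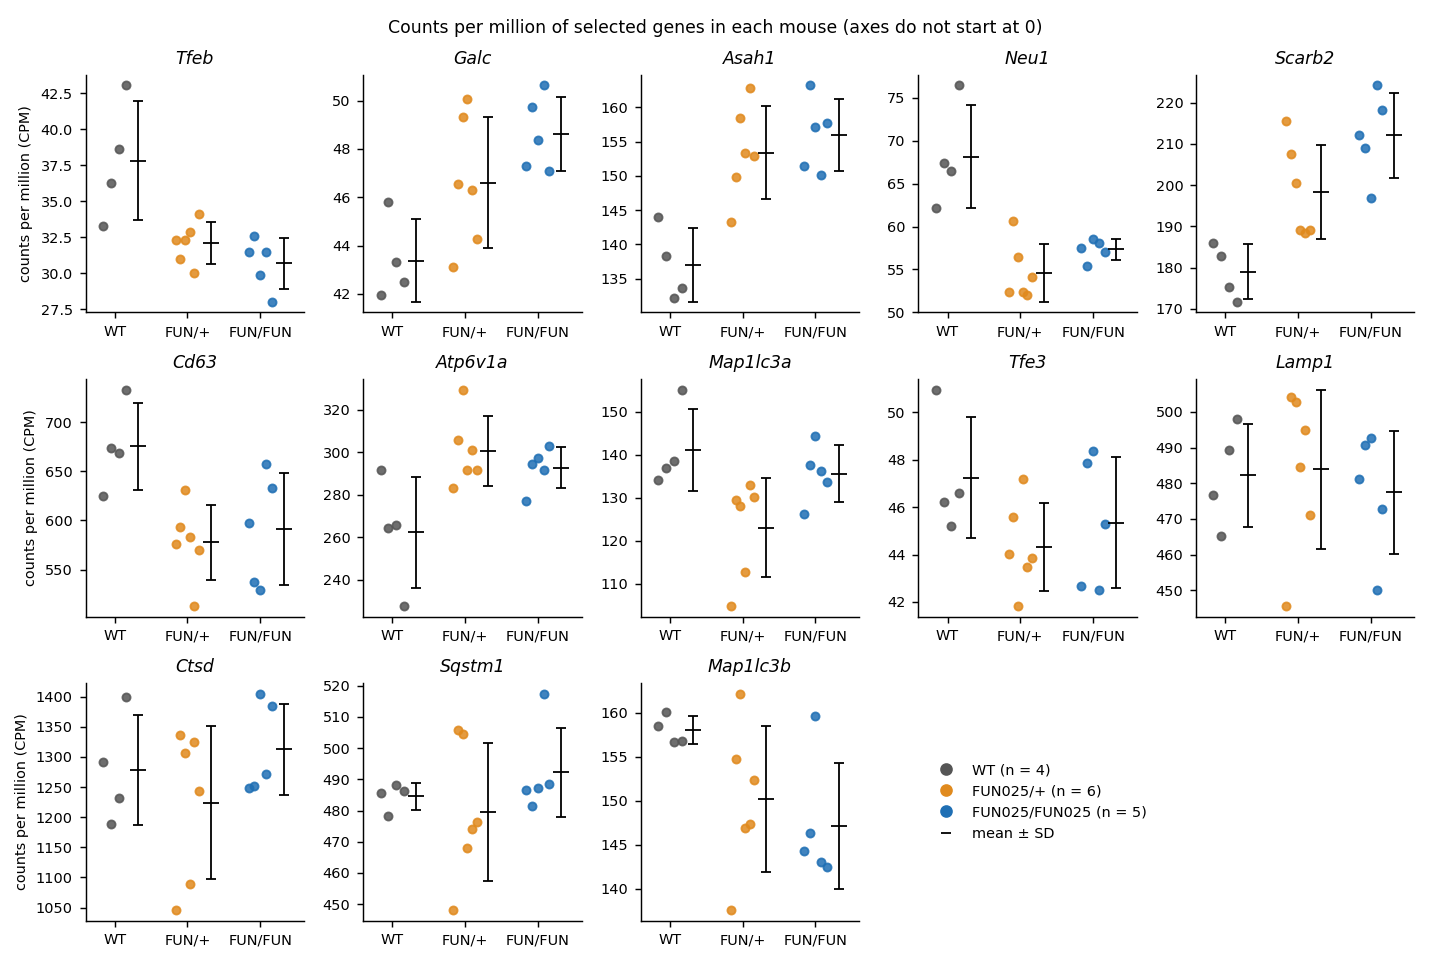
CPM of the 8 genes that passed in at least 1 comparison and of 5 more, with 1 point for each mouse and the mean and SD beside each genotype, and axes that do not start at 0. All mutant mice lie below WT for Neu1 and all FUN025/FUN025 mice lie above WT for Scarb2, whereas the genotypes overlap for Lamp1, Ctsd and Sqstm1.

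Of the 7 membrane proteins, Cd63 was lower in FUN025/+ and Scarb2 was higher in FUN025/FUN025 mice. Scarb2, which encodes LIMP-2, the receptor that carries beta-glucocerebrosidase to lysosomes, had 186, 183, 175 and 172 CPM in WT, 188 to 216 with a median of 195 in FUN025/+, and 212, 209, 197, 224 and 218 in FUN025/FUN025 mice. All 11 mutant mice lay above the 4 WT mice. It rose by 0.24 on the log2 scale (SE 0.05, adjusted p = 0.00425) in FUN025/FUN025, where the call was kept whichever mouse was left out, and differed by 0.15 (SE 0.05, adjusted p = 0.0548) in FUN025/+, where it passed without FUN025/+ replicate 5, FUN025/+ replicate 6 or FUN025/FUN025 replicate 3, and with DESeq2, upper-quartile scaling or protein-coding genes alone. Cd63, a tetraspanin of late endosomes, melanosomes and exosomes, had 625, 674, 669 and 733 CPM in WT, 513 to 631 with a median of 580 in FUN025/+, and 597, 538, 529, 658 and 633 in FUN025/FUN025 mice. Both mutant groups overlapped the lowest WT mouse, and 15.95% of the 31-base stretches in the exons of Cd63 also occur in other genes. The log2 fold change was -0.22 (SE 0.07, adjusted p = 0.037) and -0.19 (SE 0.07, adjusted p = 0.0813). The first was lost without WT replicate 2, 3 or 4, without FUN025/+ replicate 1, 4, 5 or 6 and without FUN025/FUN025 replicate 1 (adjusted p from 0.0509 to 0.151).

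Lamp1, a lysosomal membrane glycoprotein, had 477, 465, 489 and 498 CPM in WT, 446 to 504 with a median of 490 in FUN025/+, and 481, 491, 493, 450 and 473 in FUN025/FUN025 mice. The genotypes overlapped fully, and the log2 fold changes of 0.00 (95% interval -0.09 to 0.10) and -0.01 (-0.12 to 0.09) were among the most narrowly bounded. Its partner Lamp2, needed for autophagosomes to mature, was higher than every WT mouse in FUN025/FUN025 (515 to 532 against 414 to 503 CPM) with a log2 fold change of 0.16 and adjusted p = 0.0573, and 0.14 with adjusted p = 0.0902 in FUN025/+. It passed in both comparisons with DESeq2 and when WT replicate 1 was left out, and in FUN025/FUN025 also with limma-voom, with upper-quartile scaling and among protein-coding genes alone. The lysosomal calcium channel Mcoln1 (-0.01 and -0.03), the Batten disease gene Cln3 (-0.05 and -0.10) and Laptm4a (0.01 and 0.02) did not pass.

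Of the 5 V-ATPase subunits, Atp6v1a was higher in FUN025/+. It encodes the catalytic A subunit, and had 291, 264, 266 and 228 CPM in WT, 283 to 329 with a median of 296 in FUN025/+, and 277, 294, 297, 292 and 303 in FUN025/FUN025 mice. WT replicate 1 lay within both mutant groups and WT replicate 4 was the lowest. Its log2 fold change was 0.20 (SE 0.06, adjusted p = 0.0359) in FUN025/+ and 0.16 (SE 0.06, adjusted p = 0.0962) in FUN025/FUN025 mice. The call was lost without WT replicate 2, 3 or 4 or without FUN025/+ replicate 2, 3 or 5 (adjusted p from 0.0559 to 0.126). Without WT replicate 1, the call was kept in FUN025/+ and gained in FUN025/FUN025. The other subunits of the cytoplasmic V1 part, Atp6v1b2 (0.09 and 0.07) and Atp6v1h (0.09 and 0.06), and those of the membrane V0 part, Atp6v0a1 (0.01 and 0.01) and Atp6v0d1 (-0.03 and -0.05), did not pass.

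Of the 4 autophagy genes, Map1lc3a was lower in FUN025/+. It encodes LC3A, a ubiquitin-like protein that is attached to the autophagosome membrane, and had 134, 137, 138 and 155 CPM in WT, 105 to 133 with a median of 129 in FUN025/+, and 126, 138, 144, 136 and 134 in FUN025/FUN025 mice. The 6 FUN025/+ mice lay below all WT mice, with FUN025/+ replicates 1 and 4 well under the rest, while the FUN025/FUN025 mice overlapped WT. The log2 fold change was -0.20 (SE 0.07, adjusted p = 0.0493) and -0.06 (SE 0.07, adjusted p = 0.612). The call sat at the threshold, and was kept in 3 of the 15 fits that left out 1 mouse, those without WT replicate 1, FUN025/+ replicate 5 or FUN025/+ replicate 6. In the other 12 the adjusted p was 0.0509 to 0.220. Map1lc3b, which encodes LC3B, had 159, 160, 157 and 157 CPM in WT, 138 to 162 with a median of 150 in FUN025/+, and 144, 146, 160, 143 and 142 in FUN025/FUN025 mice. In FUN025/FUN025, 4 of 5 mice lay below WT and replicate 3 lay within it, with a log2 fold change of -0.10 (95% interval -0.20 to -0.00, adjusted p = 0.166). Sqstm1, which encodes p62, the adaptor that brings ubiquitinated cargo to autophagosomes and is itself degraded there, had 485, 478, 488 and 486 CPM in WT, 448 to 506 with a median of 475 in FUN025/+, and 487, 482, 487, 517 and 489 in FUN025/FUN025 mice. Its differences from WT were -0.02 (95% interval -0.11 to 0.08) and 0.02 (-0.07 to 0.12) on the log2 scale, and 17.3% of its exon length overlaps Mrnip on the other strand. The LC3 relative Gabarapl1 had -0.01 and -0.05, and 28.3% of its exon length overlaps 1700101I11Rik on the other strand.

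As a count of ranges rather than a test, 3 genes had FUN025/+ and WT mice that did not overlap (Neu1, Scarb2 and Map1lc3a), where 10.9% of all genes did, and 8 had FUN025/FUN025 and WT mice that did not overlap (Tfeb, Ctsb, Ctsl, Galc, Asah1, Neu1, Lamp2 and Scarb2), where 14.8% of all genes did. Of the 8, 6 were higher in FUN025/FUN025 and 2 were lower.

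Between the mutant genotypes, none of the 42 genes passed, where 0.522% of all genes did, and none had groups that did not overlap, where 1.12% of all genes did. At an unadjusted p under 0.05 there were 3 genes, Ctsb, Ctss and Map1lc3a, where 6.23% of all genes were, and DESeq2 and limma-voom also gave 0 past the adjusted threshold. The smallest adjusted p was 0.705, for Ctss (log2 fold change 0.29, 95% interval 0.03 to 0.55). Map1lc3a, called in FUN025/+ against WT, was higher by 0.14 in FUN025/FUN025 than in FUN025/+ (adjusted p = 0.722), so no difference between the genotypes was shown for it. The median log2 fold change was 0.02, and 41 of 42 intervals lay within 0.3 of 0.

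Base composition moved with these calls. The genes called higher in FUN025/+ had 42.7% and 46.1% GC in their exons and those called lower had 54.0% to 61.3%, and in FUN025/FUN025 the ranges were 42.7% to 49.0% and 55.0% to 61.3%. All genes tested showed the same order, with a median of 46.3% GC among genes called higher and 54.4% among those called lower in FUN025/+, and 46.7% and 54.4% in FUN025/FUN025. With an offset for GC content in the fit, 1 of the 42 genes passed in FUN025/+ (Neu1) and 3 in FUN025/FUN025 (Tfeb, Neu1 and Scarb2), where 9.83% and 10.396% of all genes passed. Tfeb, the gene with the highest GC content of the 42, then had a log2 fold change of -0.11 in FUN025/+ (adjusted p = 0.199). In a separate fit, the mean log2 CPM of the muscle markers and that of the photoreceptor markers served as covariates. With them, 1 gene passed in FUN025/+ (Neu1) and 2 in FUN025/FUN025 (Asah1 and Neu1), where 1.40% and 3.91% of all genes passed. In that fit some differences were lost as calls without being smaller, such as those of Cd63 (log2 fold change -0.48, adjusted p = 0.0745) and Asah1 (0.27, adjusted p = 0.119) in FUN025/+, while that of Scarb2 in FUN025/FUN025 was 0.14 (adjusted p = 0.364). With the macrophage markers as a covariate, 6 and 5 genes passed, where 15.2% and 15.6% of all genes did. The parts that base composition, muscle and photoreceptor RNA or depth had in each call were not otherwise tested.

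**Figure D4:**
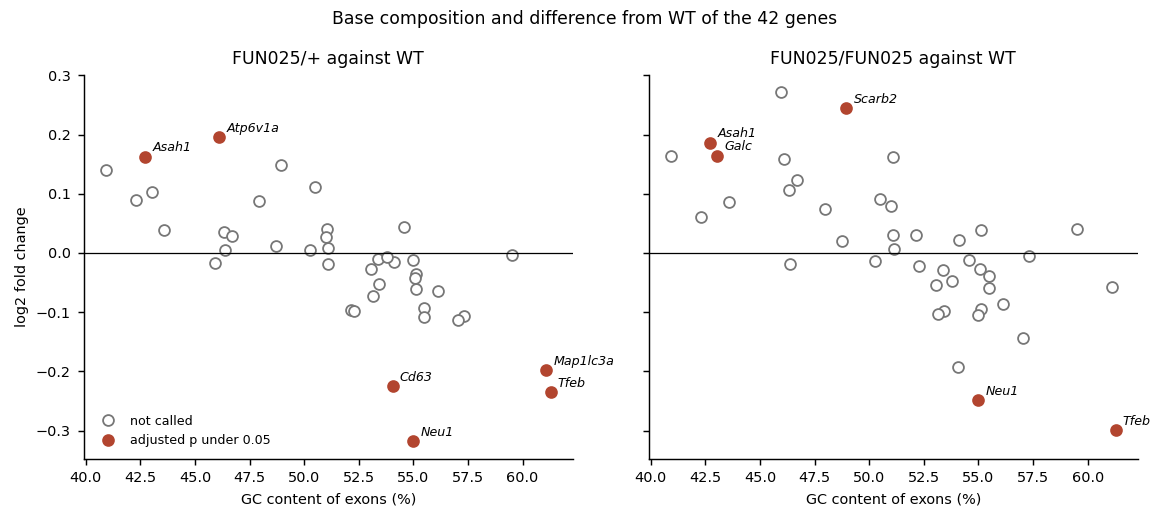
Log2 fold change against WT plotted over the GC content of the exons for the 42 genes, FUN025/+ on the left and FUN025/FUN025 on the right, with the genes past an adjusted p of 0.05 in red. The genes called higher lie at 42.7% to 49.0% GC and those called lower at 54.0% to 61.3%.

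Mice of 1 genotype differed little for most of these genes. The SD between mice within a genotype had a median of 0.08 on the log2 scale, beside 0.10 for the 8178 genes in the same range of levels. Ctss varied most (0.21), followed by Ctsz (0.14), Ctsa (0.14), Glb1 (0.13) and Ctsd (0.12), and Ctsl (0.04) and Sqstm1 (0.05) varied least. The lowest count of any of the 42 genes in any library was 240.

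A further 150 genes of the same pathways were examined, of which 149 were tested. Between FUN025/+ and WT, 25 passed (9 higher and 16 lower, 16.8% of those tested, beside 13.7% of all genes), and between FUN025/FUN025 and WT 15 passed (7 higher and 8 lower, 10.1% beside 14%). With the GC offset these counts were 11 and 12, where 9.83% and 10.396% of all genes passed. Of up to 3 genes with the smallest adjusted p in each list, 8 are named here, from those with a call against WT that was kept whichever mouse was left out, a choice made after their values were seen. Among 27 other hydrolases, 3 were lower in FUN025/+ and 2 were higher in FUN025/FUN025. Of 20 other lysosomal membrane genes, 2 were lower in FUN025/+ and none passed in FUN025/FUN025. The amino acid transporter Slc36a1 was lower in FUN025/+ (log2 fold change -0.21, adjusted p = 0.0114, and 0.0996 with the GC offset) and had -0.16 (adjusted p = 0.0529) in FUN025/FUN025.

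Of 17 other V-ATPase genes, 2 were higher and 1 lower in FUN025/+ and 1 was higher in FUN025/FUN025. Atp6ap2, an accessory subunit, was higher in FUN025/+ (0.16, adjusted p = 0.0088, and 0.286 with the GC offset) and had 0.11 (adjusted p = 0.0767) in FUN025/FUN025 mice. Of 12 sorting genes, 1 was higher and 3 lower in each comparison. Gga1, an adaptor that takes mannose 6-phosphate receptors from the Golgi, was lower in both (-0.22 and -0.23, adjusted p = 0.00468 and 0.00465), and did not pass with the GC offset (adjusted p = 0.131 and 0.104). Of 46 other autophagy genes, 3 were higher and 4 lower in FUN025/+ and 1 was higher and 3 lower in FUN025/FUN025. Stx17, the SNARE protein that fuses autophagosomes with lysosomes, had 40.6 to 45.8 CPM in WT, 49.5 to 55.9 in FUN025/+ and 51.5 to 54.6 in FUN025/FUN025 mice. All mutant mice lay above WT, by 0.29 and 0.30 on the log2 scale (adjusted p = 6.13e-04 and 5.39e-04), and with the GC offset both still passed (0.23 and 0.25, adjusted p = 0.00271 and 0.002). Atg4c, a protease that processes LC3 proteins, was higher in FUN025/+ (0.29, adjusted p = 0.0081) and had 0.19 (adjusted p = 0.0859) in FUN025/FUN025 mice.

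Of 27 genes of growth and nutrient control, 3 were higher and 3 lower in FUN025/+ and 2 were higher and 2 lower in FUN025/FUN025. Rheb, the GTPase that activates the growth kinase mTORC1 on lysosomes, had 95.3 to 98.6 CPM in WT, 113 to 123 in FUN025/+ and 109 to 121 in FUN025/FUN025 mice. All mutant mice lay above WT, by 0.27 and 0.23 on the log2 scale (adjusted p = 2.46e-04 and 0.00119), and with the GC offset both still passed (0.23 and 0.19, adjusted p = 0.00112 and 0.00533). Tsc2, which turns Rheb off, had 150 to 152 CPM in WT, 125 to 140 in FUN025/+ and 127 to 136 in FUN025/FUN025 mice. It lay below every WT mouse in both, at -0.17 and -0.21 on the log2 scale (adjusted p = 0.00719 and 0.00204), and with the GC offset it had -0.10 (adjusted p = 0.143) and -0.14 (adjusted p = 0.043). Prkaa1, a catalytic subunit of the energy sensor AMPK, was higher in both (0.22 and 0.20, adjusted p = 0.00791 and 0.0187). With the GC offset Prkaa1 did not pass in either (adjusted p = 0.136 and 0.214), and without WT replicate 4 it did not pass in FUN025/FUN025 (adjusted p = 0.0515). With the muscle and photoreceptor covariates, the calls of these 8 genes were lost.

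**Figure D5:**
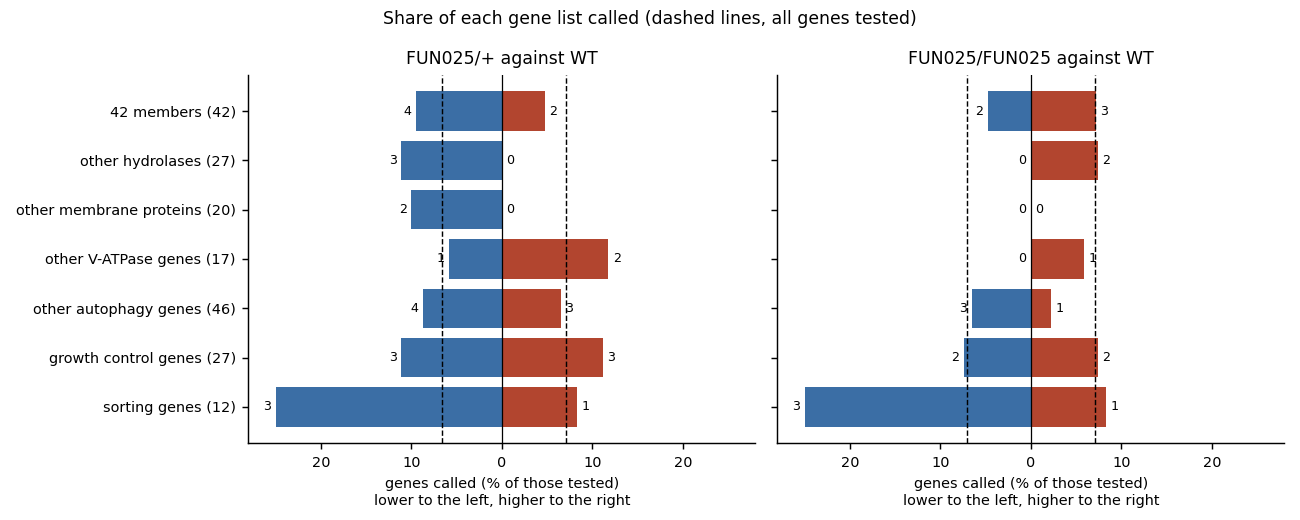
Share of each list called lower (blue, to the left) or higher (red, to the right) against WT, with the number of genes at the end of each bar, the number tested in brackets, and dashed lines for all genes tested. The 42 genes had 2 higher and 4 lower in FUN025/+ and 3 higher and 2 lower in FUN025/FUN025.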

How the data were processed

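RNA of 15 posterior eyecups (4 WT, 6 FUN025/+ and 5 FUN025/FUN025 mice) was sequenced. The deposited values are raw read counts per gene, 1 file a mouse. The submitters' processing notes name FastQC 0.11.8, Trimmomatic 0.39, HISAT2 2.1.0, SAMtools, featureCounts 2.0.0 and GRCm38. The annotation release and strand setting of the counting are not given in the sources used here. From the counts, genes in the bottom 15% by variance were dropped (47108 of 55421 left) and filterByExpr kept 18979. These were fitted over all 15 libraries in edgeR 4.0.16 (R 4.3.3, TMM scaling, robust quasi-likelihood test, Benjamini-Hochberg threshold 0.05 over all genes tested). The p-values measure the spread between mice. CPM used TMM-scaled library sizes, and TPM the exon lengths of GENCODE M21. Alternatives used DESeq2 1.42.0, limma 3.58.1, other scalings and filters, a replicate block, a GC offset, marker covariates and the omission of each mouse. On simulated counts of 18979 genes for FUN025/FUN025 against WT, with 200 genes changed, 78.5% of 2-fold and 37% of 1.25-fold changes were recovered.

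The 42 genes and all lists were chosen with earlier results of these data known. Values by mouse were given for the genes past the threshold and for Tfeb, Tfe3, Lamp1, Ctsd, Sqstm1 and Map1lc3b, and up to 3 genes with the smallest adjusted p were eligible to be named from each list of other lysosome and autophagy genes, besides Mitf and Tfec. Ctsb, Ctsl, Ctss, Lamp2 and Grn were described further after their values were seen. Marker lists for macrophages, pigment epithelium, pigment cells, endothelium, fibroblasts, striated muscle, rods and cones, and Schwann cells came from general knowledge. Promoters came from RefSeq on GRCm38.p6. A result of the other hydrolases is not reported here.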

Additional observations from a re-analysis of the deposited data

Results flagged for a closer look

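Of 126 sets of mice of 1 genotype for 1 of the 42 genes, 4 had a mouse whose gap to its nearest neighbour was too large a share of the range by Dixon's criterion, where chance gives about 1 in 20. Ctsf was at 99.2 CPM in FUN025/+ replicate 1, while the other 5 mice lay at 111 to 117. Man2b1 was at 140 CPM in FUN025/+ replicate 2, while the others lay at 123 to 128. Sqstm1 was at 517 CPM in FUN025/FUN025 replicate 4, against 482 to 489 in the others. Map1lc3b was at 160 CPM in FUN025/FUN025 replicate 3, against 142 to 146 in the others. WT sets of 4 mice were held to the same criterion and gave none. None of the 4 genes passed in a comparison.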

How the results depend on the processing

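The number of the 42 genes past the threshold between FUN025/+ and WT was 6, and it was 8 with DESeq2, 0 with the replicate block, 1 with the GC offset, 0 with both, 1 with the muscle and photoreceptor covariates and 1 to 7 when 1 mouse was left out. Between FUN025/FUN025 and WT the number was 5, and it was 8 with DESeq2, 0 with the replicate block, 3 with the GC offset, 0 with both, 2 with the muscle and photoreceptor covariates and 4 to 6 when 1 mouse was left out. The fits with the block held only the genotypes compared, and only mice whose replicate number occurred in both, so fewer mice entered them. The cause of these shifts was not tested. The median log2 fold change between FUN025/FUN025 and WT was 0.00, and 0.0444 with the block and the GC offset. Between the mutant genotypes the number was 0 in every fit run. Of 330 refitted values for the 11 called differences of these genes, 245 kept direction and call, 85 kept direction and lost the call, and 0 changed direction. The replicate numbers name different animals, and the deviations of the 13 same-numbered pairs correlated at -0.385 to 0.133, so the numbers do not pair the mice. Of all genes, 3.35% passed between FUN025/+ and WT and 6.60% between FUN025/FUN025 and WT with the block, 2.69% and 5.02% with the block and the GC offset, and 15.72% and 16.02% with DESeq2. Without WT replicate 4, 7.48% and 7.93% passed.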
